A study of Mus musculus with 24 samples.

Results

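The adenoma/MIN stage of mammary tumorigenesis was compared with the normal gland at week 8 of age. MIN stands for mammary intraepithelial neoplasia, a lesion in which atypical epithelial cells fill the ducts without invading the stroma. The 6 samples of this comparison, 3 of PyMT and 3 of FVB, were chosen by genotype and age from the 24 samples of the series, which also holds weeks 6, 10 and 12. The PyMT mice were F1 females that carried 1 copy of a transgene for the polyoma virus middle T antigen, driven by the MMTV promoter, which is active mainly in mammary epithelium. The controls were FVB females of the same age without the transgene, so that the inbred FVB background was common to all 6 mice, and no other allele and no agent is named for either group. According to the methods of the study, the PyMT mice gave mammary tumors and the FVB mice normal mammary glands. Total RNA of the frozen tissue was depleted of ribosomal RNA and sequenced as directional libraries. The transcript of the transgene itself was not analysed here.

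The mammary gland is a branched epithelium in a pad of fat. Its ducts have an inner luminal layer and an outer layer of contractile myoepithelial cells, which are also called basal cells. Some luminal cells sense hormones through the receptors for estrogen, progesterone and prolactin, and others form the alveolar lineage, which makes milk in late pregnancy and lactation. Adipocytes, fibroblasts and blood vessels surround the epithelium. Middle T has no enzyme activity and acts as a membrane scaffold that recruits Src family kinases, Shc and PI3 kinase, and these feed the ERK and AKT pathways.

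The total count was 7908370 to 12521904 reads in the PyMT libraries of week 8 and 7413790 to 7996461 in the FVB libraries. A pair of libraries stood apart. Among 3799 genes with a median of 10 to 30 CPM (counts scaled to the library total) over the series, 2.87% had no read in PyMT replicate 2 and 1.92% had none in FVB replicate 1, against at most 0.158% in the other 4 libraries. In PyMT replicate 2, 1607 genes lay more than 4-fold below both other replicates, and 1409 did so in FVB replicate 1, whereas the number was 23 to 320 in the other 4. Values without these libraries are given beside a number of the lists below, and the part of low library complexity in any result was not tested. The luminal keratin gene Krt8 had at least 489 normalized counts and the fat gene Adipoq at least 45.9 in each of the 6 libraries. The study names litter as a factor among its samples, but the labels do not give the litter of a sample, so that it was not modeled here and the p-values measure only the spread between these samples.

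Of 14918 genes tested at week 8, 533 were up-regulated in PyMT (3.57%) and 951 were down-regulated (6.37%). A gene was taken as differentially expressed (a DEG) when its adjusted p was under 0.05 (edgeR, quasi-likelihood test, p-values adjusted after Benjamini and Hochberg) and its fold change was above 2. Taking both directions together, 9.95% of the genes were DEGs. These shares are the background for every count of DEGs in a gene list. All 3 PyMT samples lay above all 3 FVB samples for 18.4% of the tested genes and below them for 21.7%. The excess of down-regulated genes did not hold when the libraries were scaled by their totals alone and TMM factors were left out. Then 830 genes were up-regulated (5.56%) and 745 down-regulated (4.99%), and the median over all genes shifted by 0.24 on the log2 scale. Each list described here kept the sign of its median under this scaling. Without PyMT replicate 1 the counts dropped to 194 up (1.30%) and 319 down (2.14%), and without FVB replicate 2 to 220 (1.47%) and 464 (3.11%). Without PyMT replicate 3 they were 276 (1.85%) and 629 (4.22%), and without FVB replicate 3 they were 457 (3.06%) and 615 (4.12%). Without both libraries that stood apart they were 796 (5.34%) and 1561 (10.5%). Without PyMT replicate 2 alone 2.49% of the genes rose and 6.10% fell, and without FVB replicate 1 alone 4.05% and 5.83%. DESeq2's Wald test called 5.66% up and 11.0% down.

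In the following, a log2 fold change is PyMT against FVB with its standard error (SE), and a value per sample is a normalized count, the count over the size factor of its library, given for replicates 1, 2 and 3 in turn. Among the genes of the lists described here, those with the largest changes and those with the smallest p between weeks, 177 were DEGs. Of these, 71 kept their call without each of the 6 libraries in turn. For a DEG named with its values that did not, the libraries whose omission ended the call are given with the adjusted p reached.

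**Figure D1:**
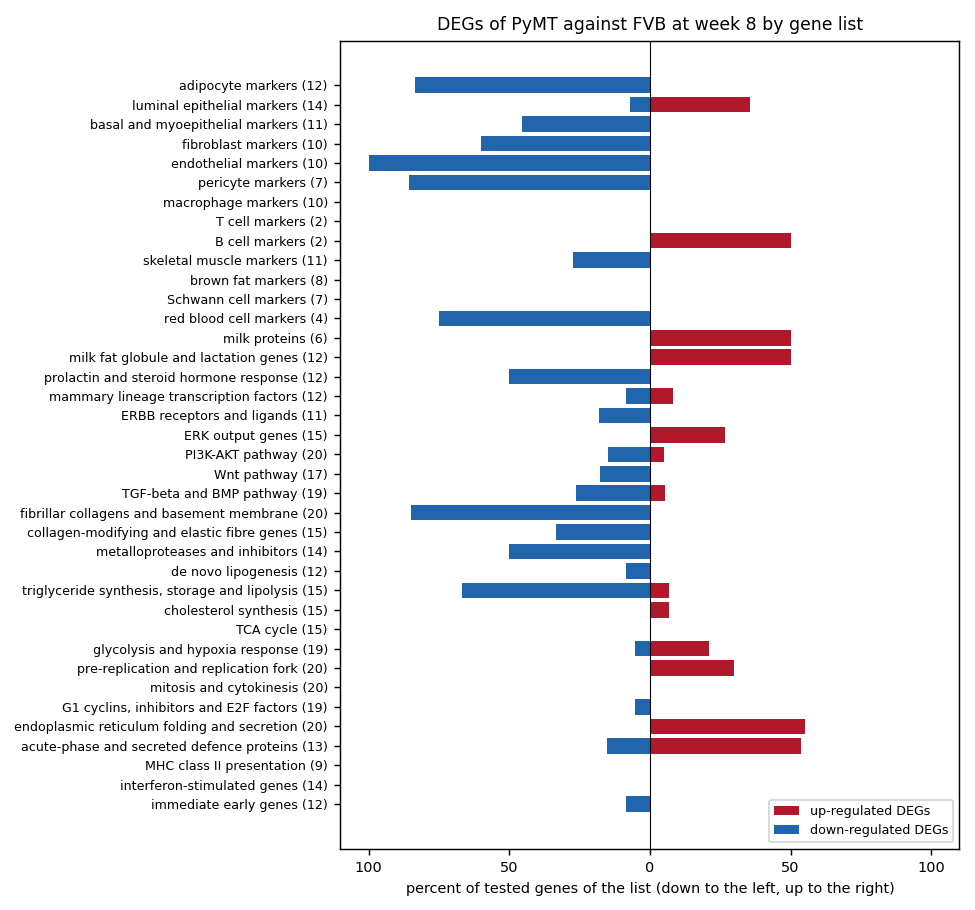
Share of the tested genes of each list that were DEGs at week 8, in percent, with down-regulated DEGs to the left in blue and up-regulated DEGs to the right in red. The number of tested genes is in parentheses. All 10 endothelial markers and 17 of 20 collagen and basement membrane genes were down-regulated, and 11 of 20 endoplasmic reticulum genes and 7 of 13 acute-phase genes were up-regulated.

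Milk protein genes were among the largest increases of the adenoma/MIN stage. Of the 6 milk protein genes tested, 3 rose and none fell, with a median log2 fold change of 4.80 against -0.04 for all tested genes. Lalba, which encodes alpha-lactalbumin, the regulator of lactose synthesis, had 4863, 4801 and 4935 normalized counts in PyMT and 16.4, 3.49 and 9.04 in FVB. The 3 PyMT samples were close together and far above every control. The log2 fold change was 8.99 (SE 0.47, adjusted p = 0.000603). The gene (ENSMUSG00000022991) lies on chromosome 15 at chr15:98310831-98313114 of mm9. Wap, the whey acidic protein gene, had 764, 273 and 769 normalized counts in PyMT and 6.31, 0 and 0 in FVB, a log2 fold change of 8.18 (SE 0.97, adjusted p = 0.00507). In 2 of its controls no read was found, so that the fitted size of this change rests on few FVB reads. Csn3, the gene of kappa-casein, which stabilizes the casein micelle, had 28038, 47101 and 30902 in PyMT and 1304, 194 and 341 in FVB and rose by 5.85 on the log2 scale (SE 0.78, adjusted p = 0.00663).

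The calcium-sensitive caseins spread more than Csn3. Csn2, the beta-casein gene, had 2918, 127 and 2532 normalized counts in PyMT and 34.1, 786 and 54.2 in FVB. Replicate 2 was the lowest PyMT sample and the highest FVB sample, and the groups overlapped (log2 fold change 2.70, SE 1.37, adjusted p = 0.244). Csn1s1, the gene of alpha-S1-casein, showed the same order, with 3974, 829 and 4382 in PyMT and 208, 2196 and 400.0 in FVB (log2 fold change 1.74, adjusted p = 0.264). Csn1s2a had 1861, 203 and 1553 in PyMT against 34.1, 229 and 12.4 in FVB (log2 fold change 3.74, adjusted p = 0.0760). These genes therefore did not pass the test at week 8, although the list held 4 up-regulated genes without PyMT replicate 2 or without FVB replicate 2.

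The promoters of these milk genes are shown because the alveolar program is driven by prolactin through STAT5, which binds the GAS motif TTCNNNGAA. The motif reads the same on both strands. The RefSeq promoters of build GRCm38.p6, from 250 bases before to 50 after the gene start, were matched for 10680 of the 14918 tested genes, and 6.72% of them held the motif. It was present in 4 of the 13 milk and lactation genes with a promoter, namely Csn1s1, Csn1s2a, Csn2 and B4galt1, and in 22 of 408 up-regulated (5.39%) and 43 of 699 down-regulated DEGs (6.15%). A match describes these letters only and is not evidence of binding. In the sequences that follow, written on the strand of the gene, the capitals mark the motif. In Csn2 its first base lay 93 bases before the gene start, in Csn1s1 100 bases before it, and in Csn1s2a at base 21 after it.
Csn2, chr5:87699376-87699675, minus strand: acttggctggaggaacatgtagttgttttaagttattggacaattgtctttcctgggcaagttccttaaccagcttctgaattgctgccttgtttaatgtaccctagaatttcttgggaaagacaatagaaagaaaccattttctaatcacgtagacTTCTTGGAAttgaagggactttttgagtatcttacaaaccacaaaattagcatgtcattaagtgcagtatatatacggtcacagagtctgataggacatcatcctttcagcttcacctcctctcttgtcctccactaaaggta
Csn1s1, chr5:87665958-87666257, plus strand: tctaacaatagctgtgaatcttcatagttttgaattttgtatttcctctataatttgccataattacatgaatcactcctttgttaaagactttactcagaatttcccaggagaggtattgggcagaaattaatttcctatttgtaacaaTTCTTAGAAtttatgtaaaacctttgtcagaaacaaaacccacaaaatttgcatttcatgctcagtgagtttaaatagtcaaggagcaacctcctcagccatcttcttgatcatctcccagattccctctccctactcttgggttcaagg
Csn1s2a, chr5:87774200-87774499, plus strand: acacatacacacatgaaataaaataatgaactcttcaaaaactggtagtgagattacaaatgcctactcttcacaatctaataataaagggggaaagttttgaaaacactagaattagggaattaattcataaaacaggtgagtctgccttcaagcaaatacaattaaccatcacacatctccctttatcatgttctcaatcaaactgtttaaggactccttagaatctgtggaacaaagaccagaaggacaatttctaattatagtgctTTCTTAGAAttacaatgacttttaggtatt
The promoters of Lalba and Wap, the milk genes with the largest increases, held no such letters in this window.
Lalba, chr15:98482634-98482933, minus strand: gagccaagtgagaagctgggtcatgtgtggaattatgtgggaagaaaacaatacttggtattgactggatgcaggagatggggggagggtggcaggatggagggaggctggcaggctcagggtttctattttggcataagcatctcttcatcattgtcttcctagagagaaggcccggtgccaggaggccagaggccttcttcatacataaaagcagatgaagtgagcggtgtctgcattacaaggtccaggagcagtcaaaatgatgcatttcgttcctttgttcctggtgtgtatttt
Wap, chr11:6638600-6638899, minus strand: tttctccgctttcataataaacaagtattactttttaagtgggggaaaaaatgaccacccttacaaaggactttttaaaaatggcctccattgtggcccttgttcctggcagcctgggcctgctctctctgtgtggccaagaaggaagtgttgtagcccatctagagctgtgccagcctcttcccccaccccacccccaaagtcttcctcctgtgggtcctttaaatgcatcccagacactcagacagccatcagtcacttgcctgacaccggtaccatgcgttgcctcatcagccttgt

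Genes of milk fat globules and of lactation rose as well. Of 12 tested, 6 were up-regulated and 0 down-regulated, with a median of 1.30. Lao1, an L-amino acid oxidase secreted into milk, had 1456, 1123 and 944 normalized counts in PyMT and 7.57, 2.33 and 7.91 in FVB (log2 fold change 7.62, SE 0.42, adjusted p = 0.000603). Folr1, a folate receptor, had 788, 1449 and 764 in PyMT against 22.7, 30.2 and 30.5 in FVB (log2 fold change 5.16, SE 0.35, adjusted p = 0.00166). Slc34a2, the sodium phosphate cotransporter of the alveolar membrane, rose by 4.42 (SE 0.40, adjusted p = 0.00278). For these 3 genes every PyMT sample was far above every control. Car6, the secreted carbonic anhydrase, had 1169, 9212 and 351 normalized counts in PyMT and 3.78, 22.1 and 13.6 in FVB. It was highest in PyMT replicate 2, and its log2 fold change went from 8.03 (adjusted p = 0.0131) to 5.86 without that library, while the call was lost without FVB replicate 2 (0.0560). Btn1a1, the butyrophilin of the milk fat globule membrane, had 2596, 878 and 1849 in PyMT against 611, 219 and 115 in FVB (log2 fold change 2.52, adjusted p = 0.0457), and its call was lost without FVB replicate 2 (0.151), FVB replicate 3 (0.0864), PyMT replicate 1 (0.141) or PyMT replicate 3 (0.107). Cd24a rose by 1.66 (SE 0.22, adjusted p = 0.00658). Mfge8 had 7574, 2089 and 7952 in PyMT against 3599, 4354 and 4415 in FVB, lowest in PyMT replicate 2, and Plin2, the coat protein of the lipid droplet, had 2758, 1264 and 2474 in PyMT against 5164, 2039 and 2139 in FVB, highest in FVB replicate 1. Both overlapped between the groups and did not pass.

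**Figure D2:**
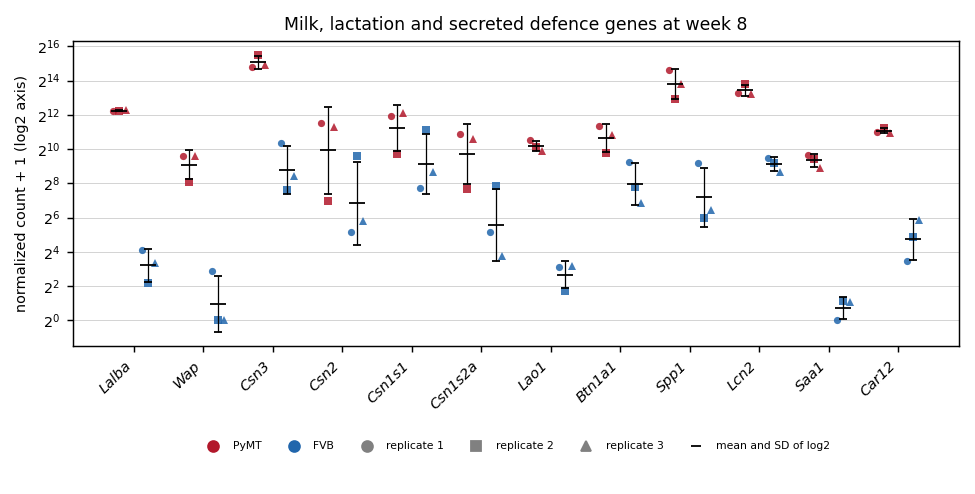
Normalized counts plus 1, on a log2 axis, of milk protein, lactation and secreted defence genes in the 6 libraries of week 8, PyMT in red and FVB in blue, with the mean and SD of the log2 values. The Lalba values of PyMT are tightly grouped and far above FVB, whereas those of Csn2 and Csn1s1 overlap, with PyMT replicate 2 low and FVB replicate 2 high.

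The endoplasmic reticulum machinery that folds secreted proteins was up-regulated over much of its list. Of 20 genes tested, 11 rose, 0 fell, and 17 had all PyMT samples above all FVB samples, with a median of 1.12. Xbp1, a transcription factor that enlarges the secretory apparatus, had 7729.6, 12312 and 6263 normalized counts in PyMT and 1728, 1963 and 1401 in FVB (log2 fold change 2.37, SE 0.29, adjusted p = 0.00568). Its lowest PyMT sample was more than 3-fold above its highest control. Among the chaperones, Hspa5 (BiP) had 6029.5, 8680.3 and 6332 in PyMT against 3261, 2348 and 2117 in FVB, a log2 fold change of 1.45 (adjusted p = 0.0124), and its call was lost without FVB replicate 2 (0.0586). Pdia6, a disulfide isomerase, rose by 1.27 (SE 0.22, adjusted p = 0.0130). Derl3, a component of the degradation channel for misfolded proteins, had 94.4, 405 and 93.5 in PyMT and 1.26, 11.6 and 9.04 in FVB and rose by 4.71 (adjusted p = 0.0198), and its call was lost without FVB replicate 2 (0.0602), FVB replicate 3 (0.0570) or PyMT replicate 2 (0.0587). The effectors of the stress branch were not called. Ddit3, which encodes CHOP, had 76.3, 176 and 81.2 in PyMT and 116, 76.8 and 101 in FVB, and Chac1 had 3.82, 0 and 11.8 in PyMT against 42.9, 50.009 and 24.9 in FVB (adjusted p = 0.848 and 0.245). The number of up-regulated genes of this list was 2 without FVB replicate 2, 5 without PyMT replicate 2 or FVB replicate 3, and 7 without PyMT replicate 1. Among the PyMT samples, replicate 2 had the highest value of Xbp1, Hspa5 and Derl3.

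Acute-phase and secreted defence genes formed another strongly raised group, with 7 of 13 tested up-regulated, 2 down-regulated and a median of 2.82. Lcn2, the siderophore-binding lipocalin, had 9936, 14467 and 9425 normalized counts in PyMT and 720.3, 581 and 405 in FVB (log2 fold change 4.31, SE 0.32, adjusted p = 0.00168). Chi3l1, a chitinase-like secreted protein, had 6027, 5570.3 and 6117 in PyMT against 454, 235 and 451 in FVB (log2 fold change 3.97, SE 0.31, adjusted p = 0.00179). Spp1, the gene of osteopontin, had 25523, 7668 and 14411 in PyMT against 575, 61.6 and 85.9 in FVB and rose by 6.07 (SE 1.02, adjusted p = 0.0118). Each of these genes was separated between the groups by more than the spread within them. The serum amyloid genes Saa1 and Saa2 were nearly silent in the controls. Saa1 had 822, 679 and 485 in PyMT against 0, 1.16 and 1.13 in FVB, and Saa2 had 729.8, 937 and 536 in PyMT against 3.78, 0 and 1.13 in FVB. Saa1 had 2410 reads over the PyMT group and 2 over the FVB group, a ratio of 801 with a 95% counting interval of 222 to 6622. Counts per gene had peaks at 18 and 8 reads in FVB replicates 1 and 2, so that this interval is no firm bound. The copies are near-identical, so that the split of reads between Saa1 and Saa2 is uncertain. Ltf, the gene of lactoferrin, had 9747, 17367 and 5967 in PyMT and 1485, 202 and 200.02 in FVB (log2 fold change 4.13, adjusted p = 0.0252), and its call was lost without FVB replicate 2 (0.0798), FVB replicate 3 (0.0588), PyMT replicate 1 (0.0749) or PyMT replicate 2 (0.0575). Lbp, the lipopolysaccharide-binding protein gene, rose by 2.82 (SE 0.40, adjusted p = 0.00755). Against the direction of the list went Orm1, an acute-phase plasma protein gene, with 40.1, 0 and 21.8 in PyMT against 537, 281 and 290.4 in FVB, and complement C3, with 2151, 390.0 and 1341 in PyMT against 13359.8, 9858 and 4174 in FVB. Orm1 fell by 4.13 and C3 fell by 2.79 on the log2 scale (adjusted p = 0.0413 and 0.0356). The call of Orm1 was lost without FVB replicate 1 (0.0694), FVB replicate 2 (0.0986), FVB replicate 3 (0.0830), PyMT replicate 1 (0.0813) or PyMT replicate 3 (0.121), and that of C3 without FVB replicate 1 (0.0607), FVB replicate 2 (0.0980), PyMT replicate 1 (0.0649) or PyMT replicate 3 (0.107).

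The luminal and the basal marker lists had medians of opposite sign, but neither list moved as a whole. Of 14 luminal markers 5 rose and 1 fell, with a median of 1.45, whereas of 11 basal and myoepithelial markers 5 fell and 0 rose, with a median of -2.36. Epcam, the epithelial adhesion molecule, had 4975, 8175 and 4521 normalized counts in PyMT and 1104, 1289.8 and 1709 in FVB (log2 fold change 2.11, SE 0.29, adjusted p = 0.00698). Elf5, the transcription factor of the alveolar lineage, had 4121, 4099 and 3894 in PyMT against 455, 1204 and 933 in FVB (log2 fold change 2.24, SE 0.34, adjusted p = 0.00910). Prom1, a surface marker of luminal cells, rose by 2.26 (SE 0.40, adjusted p = 0.0140). For all 3 genes the groups were apart. The keratin genes Krt8 and Krt18 were higher in every PyMT sample, Krt8 with 4143, 10531 and 5342 against 489, 1489 and 2633, and did not pass (adjusted p = 0.0598 and 0.0655). Krt19 had 1077, 1517 and 1789.8 in PyMT and 995, 1644 and 2886 in FVB, and Kit, the receptor of luminal progenitors, had 2246, 2316 and 2403 in PyMT against 992, 2103 and 2026 in FVB, with overlap for Krt19 (adjusted p = 0.643 and 0.352). Without PyMT replicate 1, PyMT replicate 3 or FVB replicate 2 the list held 3 up-regulated genes, and without FVB replicate 3 it held 7. Without both libraries that stood apart the median was 0.84, with 6 up-regulated genes.

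Foxa1, the factor that opens chromatin for the estrogen receptor in hormone-sensing cells, went against the luminal markers that rose. It had 48.7, 0 and 23.5 normalized counts in PyMT and 410.0, 429 and 396 in FVB and fell by 4.06 on the log2 scale (SE 1.00, adjusted p = 0.0407). Its controls were within a narrow range and all PyMT samples lay below it, 1 of them without a read. The call was lost without FVB replicate 1 (0.0512), FVB replicate 2 (0.115), FVB replicate 3 (0.0921), PyMT replicate 1 (0.0743) or PyMT replicate 3 (0.123), and without PyMT replicate 2 the log2 fold change was -3.49.

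Within the basal list the genes that fell were contractile genes and the oxytocin receptor, and the keratins were not called. Myh11, the smooth muscle myosin heavy chain, had 424, 428 and 491 normalized counts in PyMT and 2600.0, 3591 and 3508 in FVB (log2 fold change -2.84, SE 0.21, adjusted p = 0.00168). Oxtr, the oxytocin receptor through which myoepithelium contracts for milk ejection, had 202, 164 and 239 in PyMT against 840.2, 2279 and 2556 in FVB (log2 fold change -3.21, SE 0.43, adjusted p = 0.00663). Acta2, Mylk and Tagln fell by 2.36, 2.48 and 2.18 (adjusted p = 0.0115, 0.00384 and 0.00507). All 5 genes were lower in every PyMT sample, and all but Oxtr are also expressed by the smooth muscle of vessels. In contrast, Krt14 had 593, 498 and 976 in PyMT and 291, 648 and 898 in FVB, and Krt5 had 369, 694 and 845 in PyMT against 233, 551 and 1005 in FVB. Krt14 and Krt5 overlapped, with log2 fold changes of 0.19 (SE 0.43) and 0.11 (SE 0.51). In all, 8 of the 11 markers were lower in every PyMT sample. Besides the 5 DEGs these were the keratin gene Krt17 and the contractile genes Cnn1 and Actg2, which were not called. Trp63, the p63 gene of basal identity, had 365, 257 and 468 in PyMT against 308, 572 and 486 in FVB (log2 fold change -0.30, SE 0.33). In bulk tissue, fewer cells of a type and less RNA per cell cannot be told apart, and this holds for each marker list here. Nor can either be told apart from the kind of tissue taken, tumor in PyMT and normal gland in FVB.

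Among 12 lineage transcription factors, 1 rose and 1 fell, and 2 rose and 3 fell without both libraries that stood apart. Id2, an inhibitor of basic helix-loop-helix factors, had 1956, 2640.3 and 1778 normalized counts in PyMT and 172, 436 and 305 in FVB (log2 fold change 2.81, SE 0.35, adjusted p = 0.00597). Tbx3, a T-box factor of hormone-sensing cells, had 13.4, 25.3 and 54.7 in PyMT against 489, 408 and 402 in FVB and fell by 3.75 (SE 0.52, adjusted p = 0.00733). Gata3, the luminal regulator, had 1769, 1629 and 1783 in PyMT against 592, 1089.7 and 1750.5 in FVB, lowest in FVB replicate 1 (adjusted p = 0.308). Sox10 had 1552, 1707 and 1712 in PyMT and 254, 905 and 836 in FVB, above every control without passing the test (log2 fold change 1.33, SE 0.42, adjusted p = 0.0846). Ehf had 6149.7, 8761 and 4455 in PyMT against 728, 2763 and 2439 in FVB (adjusted p = 0.0609).

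The hormone receptors of the gland and their targets were lower at the adenoma/MIN stage. Of 12 tested genes of the prolactin and steroid hormone list, 6 fell and 0 rose, with a median of -2.42. Esr1, the estrogen receptor, had 305, 270.0 and 247 normalized counts in PyMT and 1584, 1116 and 1257 in FVB (log2 fold change -2.25, SE 0.21, adjusted p = 0.00293). The lowest control was more than 3-fold above the highest PyMT sample. Pgr, the progesterone receptor, had 23.9, 0 and 19.997 in PyMT against 303, 284 and 529 in FVB (log2 fold change -4.61, SE 0.97, adjusted p = 0.0232), and the call was lost without FVB replicate 2 (0.0682), FVB replicate 3 (0.0790), PyMT replicate 1 (0.0750) or PyMT replicate 3 (0.0693). Prlr, the prolactin receptor, had 2627, 2311 and 2069.7 in PyMT against 5679, 4746 and 3948 in FVB, a decrease of about the size of the threshold (log2 fold change -1.02, adjusted p = 0.0234), which was lost without FVB replicate 1 (fold change under 2), FVB replicate 2 (0.0731), PyMT replicate 1 (0.0759), PyMT replicate 2 (0.0622) or PyMT replicate 3 (0.0931). Without PyMT replicate 1, PyMT replicate 3 or FVB replicate 2 the list held 3 DEGs.

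The list also holds paracrine ligands that hormone-sensing cells send to their neighbors. Areg, the amphiregulin gene, an EGF receptor ligand induced by estrogen, had 0.954, 0 and 9.41 normalized counts in PyMT and 671, 198 and 591 in FVB. With a log2 fold change of -6.86 (SE 1.01, adjusted p = 0.00789) it had the largest decrease among the genes that reached a mean of 100 normalized counts without overlap. Areg (ENSMUSG00000029378) lies at chr5:91568641-91577458 of mm9. Tnfsf11, the gene of RANKL, which passes on the progesterone signal, did not reach the filter on low counts. It had 0 reads in the 3 PyMT samples and 31.5, 127 and 312 normalized counts in FVB. Against a floor of 3 reads over the group it was 205-fold lower in PyMT. Counts per gene had a peak at 23 reads in PyMT replicate 2, so that this ratio is no firm bound. Wnt4, another progesterone-induced ligand, had 26.7, 0 and 22.9 in PyMT against 259, 158 and 227 in FVB without passing the test (adjusted p = 0.0640). Cited1, a coactivator of the estrogen receptor, had 27.7, 0 and 16.5 in PyMT against 227, 341 and 284 in FVB and fell by 4.23 (adjusted p = 0.0350), a call that was lost without FVB replicate 2 (0.114), FVB replicate 3 (0.0864), PyMT replicate 1 (0.0772) or PyMT replicate 3 (0.105). The intracellular mediators of prolactin were not called. Stat5a had 1325, 984 and 1364 in PyMT and 952, 1479 and 1399 in FVB, and Stat5b had 1182, 1004 and 1155 in PyMT against 942, 1198 and 1241 in FVB (SE of the log2 fold change 0.24 and 0.19). The STAT5 feedback genes Socs2 and Cish had log2 fold changes of 0.33 (SE 0.31) and -0.38 (SE 0.65).

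**Figure D3:**
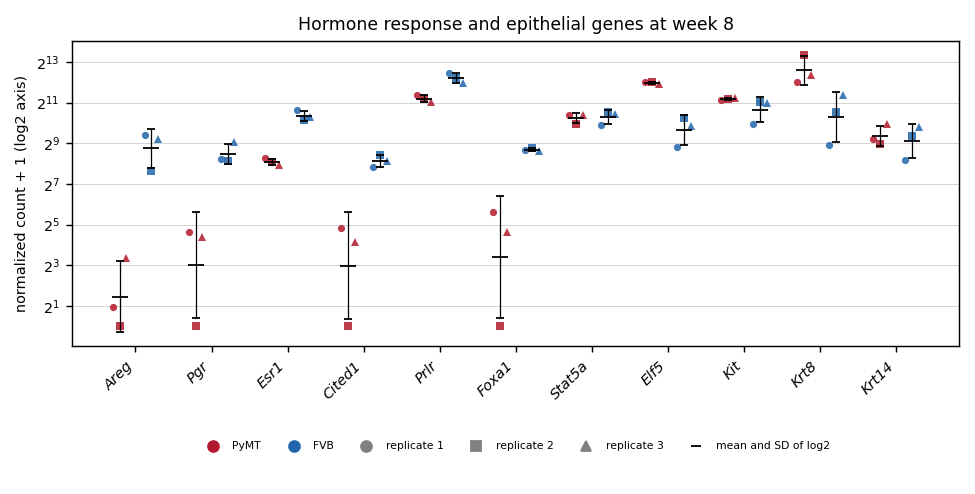
Normalized counts plus 1, on a log2 axis, of hormone receptors, their targets and epithelial genes in the 6 libraries of week 8, PyMT in red and FVB in blue, with the mean and SD of the log2 values. Areg, Pgr, Cited1 and Foxa1 are at or near 0 in PyMT replicate 2 and low in the other PyMT samples, whereas Stat5a and Krt14 overlap between the groups.

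Genes induced by ERK, a pathway downstream of middle T, were in part up-regulated. Of 15 ERK output genes tested, 4 rose and 0 fell, with a median of 0.78. Ier3 had 308, 759 and 628 normalized counts in PyMT and 60.6, 82.6 and 79.1 in FVB (log2 fold change 2.94, SE 0.38, adjusted p = 0.00635). The ETS factor gene Etv5 had 874, 2144 and 999.9 in PyMT against 251, 208 and 229 in FVB (log2 fold change 2.54, SE 0.35, adjusted p = 0.00698). Epha2, an ephrin receptor, rose by 2.26 (SE 0.29, adjusted p = 0.00617). These genes were apart in every sample, and PyMT replicate 2 was the highest for each. Etv1 rose by 3.35 (adjusted p = 0.0148) with 679, 2006 and 367 in PyMT against 112, 113 and 70.1 in FVB, and lost its call without FVB replicate 2 (0.0598). The feedback inhibitors were not called, with log2 fold changes of 0.78 for the ERK phosphatase gene Dusp6 (adjusted p = 0.0551), 0.85 for Spred1 (adjusted p = 0.0246, under the 2-fold limit), and -1.04 and -0.83 for Spry4 and Spry1 (adjusted p = 0.110 and 0.128).

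The PI3 kinase and AKT list held 1 up-regulated and 3 down-regulated genes of 20, with a median of -0.46. The up-regulated gene was Pik3r3, a regulatory subunit, with 553, 1422 and 547 normalized counts in PyMT and 303, 189.6 and 301 in FVB (log2 fold change 1.66, adjusted p = 0.0390). The down-regulated genes were the insulin receptor substrates Irs1 and Irs2, which fell by 1.41 and 1.35 (adjusted p = 0.0256 and 0.0482), and Akt2, the AKT isoform of insulin-responsive tissue, which fell by 1.32 (adjusted p = 0.0257). None of these 4 calls held without each library. Pik3r3 was lost with any of the 6 libraries left out, at an adjusted p of up to 0.127. Irs1 was lost without FVB replicate 2 (0.0663), FVB replicate 3 (0.0542), PyMT replicate 1 (0.0546) or PyMT replicate 3 (0.0763). Irs2 was lost without FVB replicate 2 (0.148), FVB replicate 3 (0.134), PyMT replicate 1 (0.115), PyMT replicate 2 (0.103) or PyMT replicate 3 (0.0994). Akt2 was lost without FVB replicate 1 (fold change under 2), FVB replicate 2 (0.0605), PyMT replicate 1 (0.0933), PyMT replicate 2 (0.0617) or PyMT replicate 3 (0.0936). Src had 708, 604 and 849 in PyMT against 222, 839 and 836 in FVB, and Akt1 had 1418, 1522 and 1816 in PyMT against 1108, 1351 and 1491 in FVB (adjusted p = 0.818 and 0.407).

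Of 11 ERBB receptor and ligand genes, 2 fell and 0 rose. Besides Areg this was Nrg4, an adipocyte-derived ERBB ligand, with 119, 44.1 and 46.5 normalized counts in PyMT and 3136, 873 and 672 in FVB (log2 fold change -4.47, SE 0.73, adjusted p = 0.0108). Every FVB sample was above every PyMT sample, and FVB replicate 1 was the highest. Egfr had 1147, 1209.5 and 1306 in PyMT against 2205, 2489 and 2354 in FVB, a difference inside the 2-fold limit (log2 fold change -0.93, adjusted p = 0.0156). Erbb2 and Erbb3 had log2 fold changes of -0.39 (SE 0.20) and 0.47 (SE 0.27). Erbb4 had 160.3, 71.3 and 113 in PyMT against 16.4, 191 and 189 in FVB, with the lowest value in FVB replicate 1 (adjusted p = 0.910). Egf had 189, 317 and 84.1 in PyMT against 0, 40.7 and 17.0 in FVB, and Tgfa had 87.8, 245 and 136 in PyMT against 22.7, 61.6 and 56.5 in FVB, both higher in every PyMT sample without passing the test (adjusted p = 0.0973 and 0.0990).

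Replication and mitotic genes were higher in PyMT in nearly every case, and few passed the test. Of 20 genes of the pre-replication complex and the replication fork, 6 rose and 18 had all PyMT samples above all FVB samples, with a median of 1.71. Of 20 genes of mitosis and cytokinesis, 0 were called by edgeR's quasi-likelihood test, 11 had an unadjusted p under 0.05 and 9 were called by DESeq2. Of these 20 genes 19 had all PyMT samples above, with a median of 2.09. The controls were spread more than the PyMT samples. Rrm2, a subunit of ribonucleotide reductase, had 756, 889 and 982 normalized counts in PyMT and 3.78, 30.2 and 128 in FVB (log2 fold change 4.02, SE 0.89, adjusted p = 0.0275), and its call was lost without FVB replicate 2 (0.107), PyMT replicate 1 (0.0825), PyMT replicate 2 (0.0553) or PyMT replicate 3 (0.0763). Rrm1, the other subunit, had 1131, 1608 and 1599 in PyMT against 317, 504 and 538 in FVB (log2 fold change 1.69, SE 0.26, adjusted p = 0.00941) and was called without any 1 library. Uhrf1, which guides DNA methylation at the fork, had 771, 1066 and 1169 in PyMT against 105, 247 and 325 in FVB (log2 fold change 2.16, adjusted p = 0.0162) and was lost without FVB replicate 2 (0.0617) or PyMT replicate 3 (0.0527). Mcm6, a subunit of the replicative helicase, rose by 1.91 (adjusted p = 0.0451) and was lost without FVB replicate 2 (0.128), PyMT replicate 1 (0.0953), PyMT replicate 2 (0.0970) or PyMT replicate 3 (0.115).

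Mitotic genes were lowest in FVB replicate 1. Ccna2, the cyclin A gene, had 1149, 1233 and 1346 normalized counts in PyMT and 1.26, 176 and 304 in FVB (log2 fold change 2.96, SE 1.02, adjusted p = 0.104). Cdk1 had 502, 472 and 653 in PyMT against 0, 107 and 220.4 in FVB, and Mki67, the gene of the Ki-67 antigen, had 4152, 3969 and 5415 in PyMT against 188, 1206 and 2169 in FVB (adjusted p = 0.206 and 0.117). The PyMT samples were close together, and FVB replicate 3 was the highest control for the 3 genes. FVB replicate 1 is one of the libraries that stood apart. Without it 12 of the 20 mitotic genes were DEGs, with a median of 1.54, and 9 of the 20 replication genes, with a median of 1.42. Without both libraries that stood apart the numbers were 17 and 14. Omission of FVB replicate 3 gave 3 mitotic DEGs, and each of the other 4 libraries gave 0. For the replication list the count was 1 without PyMT replicate 3, 2 without PyMT replicate 1 or FVB replicate 2, and 3 without PyMT replicate 2.

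**Figure D4:**
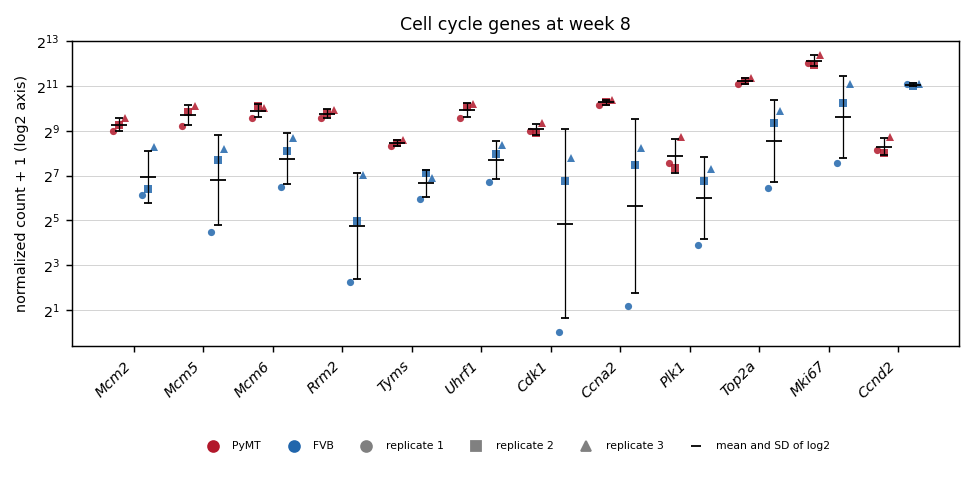
Normalized counts plus 1, on a log2 axis, of replication and mitotic genes and of Ccnd2 in the 6 libraries of week 8, PyMT in red and FVB in blue, with the mean and SD of the log2 values. FVB replicate 1 has 0 for Cdk1 and 1.26 for Ccna2, and the PyMT samples lie close together and above the controls, except for Ccnd2, where they lie below.

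Among the D-type cyclins, which drive the G1 phase, only the cyclin D2 gene passed the test. Ccnd2, the gene of cyclin D2, had 285, 254 and 419 normalized counts in PyMT and 2189, 2034 and 2171 in FVB and fell by 2.72 (SE 0.25, adjusted p = 0.00286), the 1 DEG among 19 genes of the G1 list, which held 3 without PyMT replicate 2. Ccnd1, the gene of cyclin D1, had 1227, 1225 and 1821 in PyMT against 690.1, 912 and 1428 in FVB, and Ccnd3 had 342, 372 and 315 in PyMT against 483, 462 and 624 in FVB (adjusted p = 0.324 and 0.113). E2f1, the activator of S phase genes, had 93.5, 69.4 and 124 in PyMT and 22.7, 148 and 119 in FVB (log2 fold change 0.01, SE 0.68). Cdkn1c, a CDK inhibitor gene, had 115, 0.938 and 66.5 in PyMT against 289, 485 and 686 in FVB without passing the test (adjusted p = 0.105). Cdkn2a had 78 reads over the PyMT group, nearly all in replicate 2, and 0 over the FVB group. Against a floor of 3 reads over the group it was 17.3-fold higher in PyMT. Replicate 2 is a library that stood apart, and its counts per gene had a peak at 23 reads, so that this ratio is no firm bound.

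Promoters of the replication genes are shown for the E2F motif, searched as TTTCCCGC and TTTGGCGC on both strands. It was found in 7 of 33 promoters of the replication and mitosis lists (21.2%), against 3.00% of all 10680 promoters, 3.68% of the up-regulated and 1.57% of the down-regulated DEGs. On the strand of the gene alone the shares were 9.09%, 1.60%, 0.735% and 0.572%. Within the replication and mitosis lists the matches were in Cdc6, Cdt1, Mcm3, Mcm5, Mcm6, Mcm7 and Pola1. All of these are replication genes, and no promoter of a mitotic gene held a match. Those of Rrm1, Rrm2, Tyms and Uhrf1, replication genes that rose, held none either. The promoters of Mcm6 and Pola1, which rose, and of Mcm5, which had 589.6, 905 and 1092 normalized counts in PyMT and 21.4, 208 and 290.4 in FVB without passing the test (adjusted p = 0.0846), are given with the E2F letters of either strand in capitals. Pola1 encodes the catalytic subunit of DNA polymerase alpha and rose by 1.13 (SE 0.24, adjusted p = 0.0257), a call lost with any of the 6 libraries left out, at an adjusted p of up to 0.0856 or a fold change under the limit. The first capitals in Mcm5 are a GAS match 239 bases before the gene start, outside the E2F motif.
Mcm6, chr1:128359656-128359955, minus strand: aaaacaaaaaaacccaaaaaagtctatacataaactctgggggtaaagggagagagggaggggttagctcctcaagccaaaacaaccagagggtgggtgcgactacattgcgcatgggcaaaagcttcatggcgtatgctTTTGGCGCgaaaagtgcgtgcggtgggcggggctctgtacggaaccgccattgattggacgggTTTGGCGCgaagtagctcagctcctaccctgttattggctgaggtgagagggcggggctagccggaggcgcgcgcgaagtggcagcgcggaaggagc
Pola1, chrX:93632106-93632405, minus strand: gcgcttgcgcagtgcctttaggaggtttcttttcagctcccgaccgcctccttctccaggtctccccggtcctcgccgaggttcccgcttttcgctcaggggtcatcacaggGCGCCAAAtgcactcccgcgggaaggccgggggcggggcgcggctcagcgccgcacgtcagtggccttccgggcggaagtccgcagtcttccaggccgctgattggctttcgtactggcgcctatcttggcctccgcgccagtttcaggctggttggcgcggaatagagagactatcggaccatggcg
Mcm5, chr8:75109259-75109558, plus strand: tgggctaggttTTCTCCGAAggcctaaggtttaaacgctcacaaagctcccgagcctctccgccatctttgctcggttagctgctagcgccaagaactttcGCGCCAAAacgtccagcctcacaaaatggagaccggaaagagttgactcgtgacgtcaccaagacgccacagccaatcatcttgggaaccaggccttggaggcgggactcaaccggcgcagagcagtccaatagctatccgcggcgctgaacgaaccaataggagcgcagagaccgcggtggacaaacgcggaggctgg

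Adipocyte genes had the lowest median of the cell type lists. Of 12 tested, 10 fell and 0 rose, with a median of -4.02, and 11 were lower in every PyMT sample than in every control. Lipe, the hormone-sensitive lipase, had 704, 181 and 545 normalized counts in PyMT and 12552, 5299 and 6001 in FVB (log2 fold change -4.03, SE 0.59, adjusted p = 0.00789). Cidec, a lipid droplet protein, had 639, 99.4 and 442 in PyMT against 10086, 5067 and 6049 in FVB (log2 fold change -4.14, SE 0.67, adjusted p = 0.0108). Adipoq, the gene of adiponectin, had 688, 45.9 and 365 in PyMT against 8093, 5727 and 5253 in FVB (log2 fold change -4.09, SE 0.84, adjusted p = 0.0216), and its call was lost without FVB replicate 2 (0.0627) or PyMT replicate 3 (0.0775). In each of these genes PyMT replicate 2 was the lowest and FVB replicate 1 the highest. Pck1, the enzyme of glyceroneogenesis, had 967, 13.1 and 241 in PyMT against 27463, 7509 and 6904 in FVB and fell by 5.07 (adjusted p = 0.0492), which was lost without FVB replicate 1 (0.0743), FVB replicate 2 (0.0959), FVB replicate 3 (0.0742), PyMT replicate 1 (0.0631) or PyMT replicate 3 (0.149). Summed over the 12 markers, PyMT samples had 17223, 4732 and 8769 normalized counts and FVB samples 183000.0, 73399 and 80575. The number of adipocyte DEGs was 3 without PyMT replicate 3, 4 without FVB replicate 2 and 6 without PyMT replicate 1. Per kilobase of exon, Fabp4 and Scd1 had the highest normalized counts of all nuclear protein-coding genes tested in FVB, with means of 52964 and 50507.

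Triglyceride genes followed the adipocyte markers, with 10 of 15 down-regulated, 1 up-regulated and a median of -2.88, and 6 down-regulated without PyMT replicate 3. Lpl, the lipoprotein lipase gene, had 3264, 538 and 1839 normalized counts in PyMT and 45697, 18217 and 27588 in FVB (log2 fold change -3.99, SE 0.69, adjusted p = 0.0129), and was lost without PyMT replicate 3 (0.0513). Cd36, the fatty acid transporter, fell by 3.74 (SE 0.58, adjusted p = 0.00935) and Pnpla2, the triglyceride lipase, fell by 3.23 (SE 0.51, adjusted p = 0.00968). Opposite to these, Abhd5, the coactivator of that lipase, had 2854, 2735 and 2786 in PyMT against 1545, 850.1 and 709 in FVB and rose by 1.44 (adjusted p = 0.0231), a call lost without FVB replicate 2 (0.0900), FVB replicate 3 (0.0539), PyMT replicate 1 (0.0843) or PyMT replicate 3 (0.0674). In the list of de novo lipogenesis 1 of 12 genes fell and 0 rose, with a median of -2.24. Scd1, the stearoyl-CoA desaturase, had 27921, 9908 and 17998 in PyMT against 279459, 279836 and 173462 in FVB (log2 fold change -3.69, SE 0.48, adjusted p = 0.00658). Fasn, the fatty acid synthase gene, had 29192, 4543 and 8503 in PyMT against 262638, 112560.0 and 23554 in FVB. The FVB values ran over more than 10-fold and the lowest, replicate 3, lay below PyMT replicate 1 (adjusted p = 0.0754). Without FVB replicate 3, 7 of the 12 lipogenic genes fell. Without FVB replicate 1, 2 rose and 1 fell, with a median of -1.15, and without both libraries that stood apart 2 rose and 2 fell, with a median of -0.94. Srebf1, the transcription factor of lipogenesis, had 13803, 5333 and 8861 in PyMT and 5470.1, 3161 and 2871 in FVB and was not called (adjusted p = 0.0814). Of 15 tested cholesterol synthesis genes only Sqle passed, with a log2 fold change of 1.12 (adjusted p = 0.0263), which was lost without FVB replicate 2 (0.0592), FVB replicate 3 (0.0717), PyMT replicate 1 (0.0758) or PyMT replicate 3 (0.102), and the median was 0.66. The list held 3 up-regulated genes without FVB replicate 1.

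Endothelial, pericyte and fibroblast markers were lower in the adenoma/MIN samples. All 10 endothelial markers fell, with a median of -2.53, as did 6 of 7 pericyte markers, with -2.002, and 6 of 10 fibroblast markers, with -2.14. None of them rose. Kdr, the VEGF receptor, had 279, 194 and 306 normalized counts in PyMT and 2074, 944 and 1121 in FVB (log2 fold change -2.39, SE 0.35, adjusted p = 0.00822). Rgs5, a pericyte marker, had 873, 732 and 915 in PyMT against 4145, 2734 and 3576 in FVB (log2 fold change -2.04, SE 0.23, adjusted p = 0.00433). Pdgfra, the PDGF receptor of fibroblasts, had 614, 399 and 664 in PyMT against 2346, 2695 and 2929 in FVB (log2 fold change -2.23, SE 0.25, adjusted p = 0.00443). In each of them the lowest control was more than 2-fold above the highest PyMT sample. Vegfa, the ligand, had 414, 648 and 469 in PyMT against 2904, 1011 and 1224 in FVB and fell by 1.74 (adjusted p = 0.0344), a call lost without PyMT replicate 1 (0.128), PyMT replicate 2 (0.0612) or PyMT replicate 3 (0.107). Hemoglobin transcripts were lower too, with Hba-a1 at 192, 151 and 501 in PyMT against 2823, 3411 and 1493 in FVB (log2 fold change -3.16, adjusted p = 0.0121), which was lost without PyMT replicate 1 (0.0598). The globin copies are near-identical and their split is uncertain. The endothelial count was 5 without PyMT replicate 1 or FVB replicate 2, and the pericyte count was 2 without PyMT replicate 1 and 4 without FVB replicate 2. Without both libraries that stood apart all 10 fibroblast markers fell.

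The matrix genes fell with the stromal markers. Of 20 genes of fibrillar collagens and the basement membrane, 17 fell and 0 rose, with a median of -1.80. Lama2, a laminin chain, had 919, 949 and 768 normalized counts in PyMT and 3170.3, 4468 and 3924 in FVB (log2 fold change -2.12, SE 0.21, adjusted p = 0.00323). Lamc1, the gamma-1 chain shared by most laminins, fell by 1.78 (SE 0.25, adjusted p = 0.00737). Nid1, the nidogen that links laminin to collagen IV, had 1138, 561 and 1778 in PyMT against 7065, 7618 and 10199.9 in FVB (log2 fold change -2.81, SE 0.44, adjusted p = 0.00935), a call lost without PyMT replicate 1 (0.0514). Fibrillar collagen was more uneven among the controls. Col1a1, of the fibroblast list, had 5626, 4511 and 11487 in PyMT against 7266, 32864 and 47682 in FVB, and FVB replicate 1 lay below PyMT replicate 3 (log2 fold change -1.99, SE 0.67, adjusted p = 0.0968). The 1 matrix gene with a positive value was Col4a5, a collagen chain of epithelial basement membranes, with 1612, 1719 and 1191 in PyMT and 289, 833 and 729 in FVB, which was not called (log2 fold change 1.30, adjusted p = 0.0643). The number of matrix DEGs was 4 without PyMT replicate 1, 8 without FVB replicate 2, 10 without PyMT replicate 2 and 11 without FVB replicate 3.

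Enzymes that modify or cut the matrix were also lower. Of 15 genes of collagen modification and elastic fibers, 5 fell, and of 14 metalloproteases and inhibitors, 7 fell. None rose, and the medians were -1.04 and -1.64. Mmp2, the gelatinase gene of fibroblasts, had 737, 476 and 935 normalized counts in PyMT and 2932, 4039 and 2929 in FVB (log2 fold change -2.18, SE 0.30, adjusted p = 0.00733). Timp4, a metalloprotease inhibitor of fat tissue, had 24.8, 0 and 5.88 in PyMT against 771, 156 and 329 in FVB (log2 fold change -5.35, adjusted p = 0.0239), which was lost without FVB replicate 3 (0.0538) or PyMT replicate 3 (0.0879). Loxl1, a crosslinking enzyme of elastin, fell by 2.17 (adjusted p = 0.0121), lost without PyMT replicate 1 (0.0629). Mmp15, a membrane-bound protease of epithelia, had 1111, 2382 and 948 in PyMT against 1082, 1194 and 1424 in FVB (log2 fold change 0.26, SE 0.33), and Timp1 had 93.5, 15.0 and 161 in PyMT against 0, 25.6 and 47.5 in FVB (adjusted p = 0.406). The metalloprotease count was 2 without PyMT replicate 1, 3 without FVB replicate 2 and 4 without FVB replicate 3, and that of the modifying genes was 0, 1 and 2, and 3 without PyMT replicate 2. Without both libraries that stood apart 8 modifying genes fell.

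In the Wnt list 3 of 17 tested genes fell and 0 rose, with a median of -1.32. Axin2, a feedback target of canonical Wnt signaling, had 48.7, 90.9 and 68.8 normalized counts in PyMT and 334, 515 and 399 in FVB (log2 fold change -2.57, SE 0.34, adjusted p = 0.00658), with no overlap. The receptor genes Fzd1 and Fzd4 fell by 1.40 and 3.44 (adjusted p = 0.0201 and 0.0321). Fzd1 was lost without FVB replicate 2 (0.0727), FVB replicate 3 (0.0542) or PyMT replicate 1 (0.0893), and Fzd4 without FVB replicate 1 (0.0504), FVB replicate 2 (0.0646), FVB replicate 3 (0.0711), PyMT replicate 1 (0.106) or PyMT replicate 3 (0.0575). Fzd7 had 766, 790.4 and 1137 in PyMT against 603, 1065 and 887 in FVB, and Lgr4 had 605, 852 and 730.5 in PyMT against 445, 798 and 815 in FVB (SE of the log2 fold change 0.27 and 0.27). In the TGF-beta and BMP list 1 of 19 rose and 5 fell, with a median of -0.82. Tgfb3, the TGF-beta isoform of mammary involution, had 3452, 2144 and 3909 in PyMT against 622, 839.7 and 1099.5 in FVB (log2 fold change 1.91, SE 0.32, adjusted p = 0.0112), and was lost without FVB replicate 2 (0.0533). Tgfb1 had 112, 181 and 155 in PyMT against 136, 191 and 279 in FVB (adjusted p = 0.512). Among those that fell, Ltbp4, which stores latent TGF-beta in the matrix, had 474, 270.0 and 442 in PyMT against 1635, 1211 and 1874 in FVB (log2 fold change -1.97, SE 0.29, adjusted p = 0.00789), and Tgfbr3, the coreceptor betaglycan, fell by 1.45 (adjusted p = 0.0111), lost without PyMT replicate 1 (0.0507). The number of down-regulated genes of this list was 1 without PyMT replicate 1, 2 without FVB replicate 2 or FVB replicate 3, and 3 without PyMT replicate 2.

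Leukocyte markers were mostly not called. Of 10 macrophage markers 0 passed edgeR's quasi-likelihood test, 1 had an unadjusted p under 0.05 and 1 was down-regulated by DESeq2, and the median was 0.17. Csf1r, the receptor of the macrophage growth factor, had 815, 922 and 890.5 normalized counts in PyMT and 867, 1468 and 1479 in FVB (log2 fold change -0.53, SE 0.24), and Lyz2, lysozyme M, had 1762, 2126 and 1964 in PyMT against 912, 2635 and 1659 in FVB (log2 fold change 0.18, SE 0.35). Both overlapped. Cd163, the scavenger receptor of resident macrophages, had 74.4, 22.5 and 146 in PyMT against 448, 299 and 472 in FVB, lower in every PyMT sample without passing (log2 fold change -2.28, adjusted p = 0.0533). Of 8 markers each, 2 were tested for T cells and 2 for B cells, and the others had too few reads. The T cell receptor genes Cd3e and Cd3d had at most 9.30 normalized counts in any sample. The tested B cell markers moved apart. Blnk, the B cell linker gene, rose, with 401, 673 and 381 in PyMT against 65.6, 104 and 129.96 in FVB (log2 fold change 2.28, SE 0.36, adjusted p = 0.00968). Ighm, the immunoglobulin mu heavy chain gene, had 109, 92.8 and 90.0 in PyMT against 177, 184 and 789 in FVB, lower in every PyMT sample without passing the test (log2 fold change -1.96, SE 0.60, adjusted p = 0.0764), and 1 B cell marker was down-regulated without FVB replicate 1. The 9 genes of MHC class II presentation had 0 calls by edgeR and DESeq2, 2 at an unadjusted p under 0.05 and a median of -0.70, with H2-Aa at 1051, 854 and 869.9 in PyMT against 703, 2779.6 and 1266 in FVB.

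Interferon-stimulated genes were high in 1 PyMT sample. The list had 0 calls by edgeR among 14 genes, 5 at an unadjusted p under 0.05, 2 by DESeq2 and a median of 2.11. Rsad2, the gene of viperin, had 18.1, 961 and 18.8 normalized counts in PyMT and 49.2, 90.7 and 73.5 in FVB, so that PyMT replicates 1 and 3 lay below every control. Ifi44 had 69.6, 935 and 45.3 in PyMT against 22.7, 26.7 and 26.0 in FVB, and Irf7, the interferon regulatory factor, had 123, 1378 and 78.2 in PyMT against 108, 116 and 87.0 in FVB (adjusted p = 0.0731 and 0.174). Without PyMT replicate 2 the median of the list was -0.69, with 1 gene down-regulated, and without both libraries that stood apart it was -0.55, with 2 down-regulated. Immediate early genes had 1 down-regulated gene of 12, Klf4, with 97.3, 143 and 120.0 in PyMT against 498, 372 and 321 in FVB (log2 fold change -1.71, SE 0.29, adjusted p = 0.0124), which was lost without PyMT replicate 1 (0.0609). Fos had 398, 387 and 605 in PyMT against 47.9, 258 and 257 in FVB (adjusted p = 0.178).

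**Figure D5:**
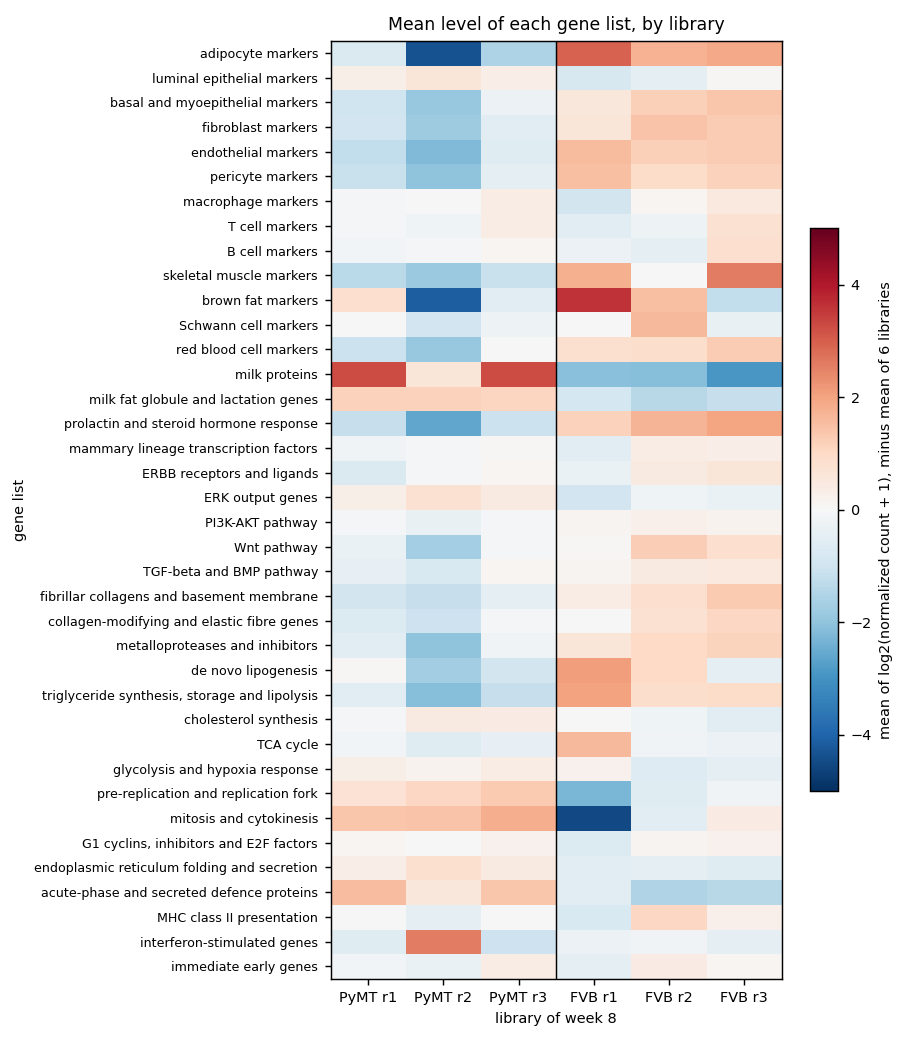
Mean of log2(normalized count + 1) over the genes of each list in the 6 libraries of week 8, shown by color as the difference from the mean of the 6 libraries. PyMT replicate 2 is lowest for adipocyte and brown fat markers and highest for interferon-stimulated genes, and FVB replicate 1 is highest for brown fat and TCA cycle genes and lowest for mitotic genes.

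Glucose metabolism moved gene by gene. Of 19 genes of glycolysis and the hypoxia response, 4 rose and 1, Vegfa, fell, with a median of 0.42. Hk1, hexokinase 1, had 2688, 2700.3 and 3199 normalized counts in PyMT and 423, 655 and 788 in FVB (log2 fold change 2.22, SE 0.26, adjusted p = 0.00510). Aldoc, aldolase C, had 1446, 1507 and 1289.8 in PyMT against 218, 319 and 363 in FVB (log2 fold change 2.25, SE 0.23, adjusted p = 0.00384). Slc2a1, the basal glucose transporter, rose by 2.11 (SE 0.31, adjusted p = 0.00822). These 3 genes were apart between the groups. The insulin-responsive forms differed, with Slc2a4 at 366, 21.6 and 106 in PyMT against 2624, 1379 and 868 in FVB and Hk2 at 843, 366 and 448 in PyMT against 3735, 959 and 883 in FVB, neither of them called (adjusted p = 0.0555 and 0.108). FVB replicate 1 held the highest control value of Aldoa, Gpi1, Eno1 and Pkm2, and without it 9 of the 19 genes rose, with a median of 1.19. The TCA cycle list had 0 calls of 15 by edgeR, 3 at an unadjusted p under 0.05, 2 by DESeq2 and 2 genes with all PyMT samples below all controls. All 15 genes had a negative log2 fold change, with a median of -1.0001, which was -0.10 without FVB replicate 1 and 0.03 without both libraries that stood apart.

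Markers of other tissue varied among the controls. Brown fat markers had a summed normalized count of 1797, 238 and 459.9 in PyMT and 14537, 2028 and 350.3 in FVB, led by Ucp1, the uncoupling protein, with 925, 2.81 and 122 in PyMT against 7650.0, 756 and 6.78 in FVB. All 8 of them were tested, with a median of -2.54, which was -0.33 without FVB replicate 1, and 0 were called by edgeR, with 1 at an unadjusted p under 0.05 and 1 by DESeq2, and the sum of FVB replicate 3 lay below 2 PyMT samples. The high sum of FVB replicate 1 went with its high TCA cycle and lipogenic genes, and its part in those values was not tested. Skeletal muscle markers had sums of 72.5, 42.2 and 70.0 in PyMT against 746, 201 and 1252 in FVB, with 3 of 11 down-regulated. Acta1, skeletal actin, had 8.59, 6.56 and 11.2 in PyMT against 121, 50.009 and 539 in FVB (log2 fold change -4.70, adjusted p = 0.0205), and was lost without FVB replicate 3 (0.105), PyMT replicate 1 (0.0874), PyMT replicate 2 (0.0605) or PyMT replicate 3 (0.0646). The list had 0 DEGs with any 1 PyMT library or FVB replicate 3 left out. Schwann cell markers had 0 calls of 7 by edgeR, 3 at an unadjusted p under 0.05 and 2 by DESeq2.

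Several of the largest changes belonged to none of these lists. Car12, a membrane carbonic anhydrase, had 2086, 2453 and 1971 normalized counts in PyMT and 10.1, 27.9 and 57.6 in FVB (log2 fold change 6.08, SE 0.54, adjusted p = 0.00278). Ankrd22 had 193, 524 and 132 in PyMT against 0, 0 and 2.26 in FVB, or 986 reads over the PyMT group and 2 over the FVB group, a ratio of 328 with a 95% counting interval of 90.5 to 2711. With peaks of the counts per gene at 18 and 8 reads in FVB replicates 1 and 2, this interval is no firm bound. Slc6a14, an amino acid transporter, had 116, 426 and 112 in PyMT against 0, 0 and 5.65 in FVB and rose by 6.72 (adjusted p = 0.0145), lost without FVB replicate 2 (0.0523). In a further set PyMT replicate 2 was far above the other PyMT samples. The largest fitted increase of all, that of 2310057J18Rik, rested on 394, 32926 and 18.8 in PyMT and 1.26, 5.81 and 1.13 in FVB (log2 fold change 11.88, SE 2.97, adjusted p = 0.0422). It was 6.19 without PyMT replicate 2, and the call was lost without FVB replicate 1 (0.0949), FVB replicate 2 (0.133), FVB replicate 3 (0.119) or PyMT replicate 1 (0.0635). Pigr, the receptor that carries IgA into secretions, had 827, 5953 and 518 in PyMT against 20.2, 24.4 and 24.9 in FVB, with a log2 fold change of 6.68 (adjusted p = 0.00944) and of 4.88 without that library. Abpb, a gene of the androgen-binding protein family with near-identical copies, had 504, 4134 and 74.7 in PyMT against 1.26, 4.65 and 3.39 in FVB (log2 fold change 8.88, and 6.499 without it), and was lost without FVB replicate 2 (0.0744) or FVB replicate 3 (0.0590).

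Among the decreases, Cyp2e1, a cytochrome P450 of liver and fat, had 208, 1.88 and 74.1 normalized counts in PyMT and 9527, 3244 and 3423 in FVB (log2 fold change -5.81, adjusted p = 0.0231), and was lost without FVB replicate 2 (0.0595), PyMT replicate 1 (0.050022) or PyMT replicate 3 (0.0895). Agtr1a, the angiotensin receptor, had 3.82, 24.4 and 31.8 in PyMT against 619, 955 and 492 in FVB (log2 fold change -5.05, SE 0.66, adjusted p = 0.00658) and kept its call without each library. Gpr81, the lactate receptor of adipocytes, Ces1f, a carboxylesterase, and Pdk4, a kinase that blocks pyruvate oxidation, fell by 4.82, 4.95 and 4.74 (adjusted p = 0.0193, 0.0220 and 0.0393). Their calls were lost without FVB replicate 2 (0.0589), FVB replicate 3 (0.0539) or PyMT replicate 1 (0.0883) for Gpr81, without FVB replicate 2 (0.0569), PyMT replicate 1 (0.0551) or PyMT replicate 3 (0.0802) for Ces1f, and without FVB replicate 1 (0.0539), FVB replicate 2 (0.0699), PyMT replicate 1 (0.0606), PyMT replicate 2 (0.0820) or PyMT replicate 3 (0.124) for Pdk4. Nos1, neuronal nitric oxide synthase, had 2.86, 0 and 8.82 in PyMT against 189, 356 and 116 in FVB, Lctl, a klotho relative, had 6.68, 0 and 8.82 in PyMT against 309, 385 and 140.1 in FVB, and Trim67 had 1.91, 0 and 11.2 in PyMT against 411, 53.5 and 175 in FVB. They fell by 5.65, 5.63 and 5.42 (adjusted p = 0.0152, 0.0116 and 0.0314) and were lost without FVB replicate 2 (0.0727) or PyMT replicate 1 (0.0719) for Nos1, without FVB replicate 2 (0.0548) or PyMT replicate 1 (0.0547) for Lctl, and without FVB replicate 1 (0.0714), FVB replicate 2 (0.0504), FVB replicate 3 (0.0686) or PyMT replicate 1 (0.115) for Trim67.

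Whether the difference between PyMT and FVB at week 8 departed from that of other weeks was tested gene by gene with the 24 samples in 1 model. Against the mean of weeks 6, 10 and 12 no gene passed (0 of 14918, 0%), with 323 at an unadjusted p under 0.05 by edgeR's quasi-likelihood test, and DESeq2's Wald test called 2. With limma voom the number was 0 in this and both following comparisons. Against week 6 alone no gene passed either (0%), with 427 at an unadjusted p under 0.05 and 2 by DESeq2. Against week 10, the stage of early carcinoma, 1 gene passed (0.00670%), with 533 at an unadjusted p under 0.05 and 7 by DESeq2. It was Trip13, which encodes an ATPase of the spindle checkpoint and meiotic recombination, with a difference of -8.43 (SE 1.18, adjusted p = 0.0126). The PyMT samples of week 8 had 142, 63.8 and 162 normalized counts, and the FVB samples had 49.2, 29.1 and 62.2. Each of the 3 FVB samples of week 10 had 0, so that the size of the fitted difference rests on libraries without a read.

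The gene lists at week 8 can be set beside the same lists at other weeks, each against its own controls. Of all tested genes, 3.58% rose and 6.46% fell at week 6, 4.83% and 9.09% at week 10, and 7.75% and 13.0% at week 12. The adipocyte markers had a median log2 fold change of -4.02 at week 8 and of -2.46, -4.71 and -4.07 at weeks 6, 10 and 12. The milk proteins had 4.80 at week 8 and 5.62, 5.13 and 2.08 at the other weeks, with 6 of 6 called at weeks 6 and 10 and 3 at week 12. For the mitotic genes the median was 2.09 at week 8 and 1.57, 2.84 and 2.67 at the others, with 0 called at week 8 and 2, 10 and 15 at weeks 6, 10 and 12. Without FVB replicate 1 of week 8, 12 were called at week 8, with a median of 1.54. The interferon list had 2.11 at week 8 and -0.32, -0.33 and 0.58 at the other weeks. Its week 8 median was -0.69 without PyMT replicate 2. Libraries stood apart at other weeks too. The share of genes of 10 to 30 CPM without a read was 4.40% in FVB replicate 3 of week 10, the highest of the series, 1.66% in PyMT replicate 2 of week 6 and 1.26% in PyMT replicate 2 of week 10. FVB replicate 3 of week 10 also had the lowest mean of the mitotic genes, 2.81 as log2(normalized count + 1), against 2.93 in FVB replicate 1 of week 8. The part of these libraries in the values of their weeks was not tested. The differences between weeks were tested per gene only, as given above.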

How the data were processed

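RNA-seq counts of 24 mammary gland samples were used. According to the methods of the study, the authors aligned reads to mm9 with GSNAP and counted them per gene with HTSeq, and they deposited raw counts in 1 table. The table held 37991 genes, of which 37205 had a model in GENCODE M1 on mm9, and 0 columns of no sample. From these counts, genes with at least 1 CPM in at least 12 of the 24 samples were kept (14918). The 6 samples of week 8 were fitted with TMM factors by edgeR's quasi-likelihood test (edgeR 4.0.16, limma 3.58.1, R 4.3.3), and p-values were adjusted by the Benjamini-Hochberg method over all tested genes. The thresholds of a DEG were 0.05 for the adjusted p and 1 for the absolute log2 fold change. The SE is the absolute log2 fold change over the square root of F. Normalized counts used size factors of DESeq2 1.42.0, and figures were drawn after adding 1. Contrasts between weeks used all 24 samples. Intervals of read ratios are exact, 95%, and cover counting error only. They and the floor of 3 reads treat reads as independent. At week 8, counts per gene had a peak at 23 reads in PyMT replicate 2. In FVB replicates 1 and 2 it lay at 18 and 8 reads, and in the FVB libraries of week 10 at 12, 13 and 19. Ratios that rest on such libraries are therefore no firm bounds.

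Groups came from genotype and age in the sample labels. Named genes were the 12 largest increases and 12 largest decreases with a mean of at least 100 normalized counts and no overlap, for each list the first gene and up to 3 DEGs per direction, members that went against their list, and the 5 smallest p-values between weeks. Other list members named with values were chosen after their values were seen. The comparison, its members and the lists were chosen with earlier results of these data known. The fit was tested on simulated data. These were independent draws that did not model the peaks in counts per gene, and they cannot speak for libraries with such peaks. Alternatives were other scaling, filters and tests, a fit of all samples, a replicate block and each library left out. Besides the comparisons between weeks, the columns for weeks 6, 10 and 12 entered the filter, the size factors and the choice of genes of 10 to 30 CPM. They also entered the alternative fit of all samples. Some genes of the lists are not reported here by name.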

Additional observations from a re-analysis of the deposited data

Results flagged for a closer look

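Trip13 was the only gene whose difference between PyMT and FVB at week 8 differed from that at week 10 by a test of the difference itself, by -8.43 on the log2 scale (edgeR, adjusted p = 0.0126). At week 10 it had 354 reads over the PyMT group and 0 over the FVB group. Against a floor of 3 reads over the group that was 110-fold more, and neither this ratio nor the fitted size is a firm bound. At week 8 its log2 fold change was 1.42 (adjusted p = 0.157). By limma voom the difference did not pass (adjusted p = 0.671).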

How the results depend on the processing

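The number of up-regulated genes, 533, was 845 by DESeq2's Wald test, 813 by edgeR's exact test, 108 by a test against a 2-fold change (glmTreat), 830 with library size only and 813 without the filter on low counts, and 194 to 604 with 1 library left out. The number of down-regulated genes, 951, was 1648 by DESeq2, 1513 by the exact test, 1593 by limma voom with sample weights, 236 by glmTreat and 319 to 910 with 1 library left out. Omission of both PyMT replicate 2 and FVB replicate 1, an alternative chosen after seeing the data, gave 796 and 1561, and it turned Rsad2 to -2.11 (adjusted p = 0.0362). Between weeks, DESeq2 called 2 genes against the other weeks, 2 against week 6 and 7 against week 10, where limma voom called 0. The cause of these shifts was not tested. Among the 24 genes with the largest changes no sign changed under any alternative, and 12 to 24 stayed called. Each group had 3 samples.

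Replicate numbers were shared by PyMT and FVB, but same-numbered samples deviated together only weakly (correlations of 0.0666, 0.0222 and 0.177), so that the numbers were not taken to pair the samples. With the replicate block 475 genes were up-regulated and 889 down-regulated.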
